A study of Mus musculus with 2 samples.

Results

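Semaphorins are guidance signals, secreted or held on the cell surface, and plexins are the receptors that receive them. First described for their part in steering axons, they also act on blood vessels, where a semaphorin that reaches a plexin on an endothelial cell changes its cytoskeleton and its attachment to the matrix. Most secreted class 3 semaphorins bind a neuropilin, which holds the plexin as its signalling partner, whereas membrane-bound semaphorins of classes 4, 6 and 7 mostly contact plexins or integrins directly.

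The genes described here are 10 of this family, 6 semaphorins (*Sema3c*, *Sema3f*, *Sema3g*, *Sema4c*, *Sema6a* and *Sema7a*) and 4 plexins (*Plxnd1*, *Plxna2*, *Plxna4* and *Plxnb2*). They were taken by symbol from 19813 genes with a row in both count tables, and each of the 10 had a row in both. They were selected on symbol with earlier results of these data known, among them the far higher UMI count of *Sema3c* at P15 than P6. The levels below are therefore a description and carry no test. The other 14 semaphorins and 5 plexins of the mouse serve as the wider family.

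The data are single-cell RNA sequencing of retinal endothelial cells from wild-type C57BL/6 mice, 1 library at postnatal day 6 (P6) and 1 at postnatal day 15 (P15) and no transgene or treatment named in the labels. In both, cells positive for the endothelial surface protein CD31 and negative for the leukocyte protein CD45 were sorted before droplet capture, and how many pups were pooled was not given in the sources used here. A UMI (unique molecular identifier) marks 1 captured mRNA molecule, and levels are given as CPM, the UMIs of a gene in a set of cells scaled to 1000000 UMIs in all. With 1 library per age, age and library cannot be told apart. Every interval is an exact 95% interval that covers counting error only.

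The exclusion criteria left 1424 P6 cells with 7648189 UMIs (median 4986 per cell) and 1644 P15 cells with 7371443 UMIs (median 4215). The libraries shared 7 cell barcodes, 0.353% of those at P6 and 0.327% at P15. All 8 endothelial markers were found in both, at a summed 8225 CPM at P6 and 13155 CPM at P15. The P15 cells carried more RNA of other retinal cells: 8 pericyte and mural markers summed to 13.3 CPM at P6 (7 of 8 found, *Cspg4* at 0) and 330.1 at P15 (8 of 8 found). Cells with *Xist* and no Y-linked UMI numbered 246 at P6 and 96 at P15, and cells with Y-linked and no *Xist* UMIs 339 and 821. The median gene of 10972 with at least 50 UMIs over both libraries had a P15 to P6 ratio of 1.09.

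Promoters are printed for *Sema3g* and *Sema7a*, which were high on the arterial side of the retinal vasculature in the results that follow. Each line gives the 250 bases before the RefSeq transcription start (GRCm38.p6, plus strand for both), and capitals mark every CG and every TATAA on either strand.
*Sema3g*, chr14:31217623-31217872: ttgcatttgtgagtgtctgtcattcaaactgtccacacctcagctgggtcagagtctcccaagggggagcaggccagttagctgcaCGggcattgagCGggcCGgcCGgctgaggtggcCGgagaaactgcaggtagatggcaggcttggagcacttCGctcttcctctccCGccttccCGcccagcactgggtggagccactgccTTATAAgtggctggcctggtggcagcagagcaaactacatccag
*Sema7a*, chr9:57939862-57940111: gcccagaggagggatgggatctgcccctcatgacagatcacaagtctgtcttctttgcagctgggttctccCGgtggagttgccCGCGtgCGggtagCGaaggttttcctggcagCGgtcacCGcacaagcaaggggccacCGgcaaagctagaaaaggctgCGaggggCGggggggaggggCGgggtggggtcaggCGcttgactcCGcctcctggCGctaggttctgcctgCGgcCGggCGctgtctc

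*Sema7a* held 17 CG and *Sema3g* 8, where the median of the 32851 promoters in the RefSeq table is 6. The same window of *Sema3c*, chr5:17574566-17574815, held 39, more than 98.4% of promoters. It lies inside the first exon of a longer GENCODE transcript, in the untranslated region, and is not printed. *Sema3g* was the only one of the 7 members in the table with TATAA, 1 match beginning 43 bases before the start on the plus strand and overlapping a second on the minus strand, and 22.8% of all promoters hold these letters. ACGTG, the core of hypoxia response elements, lay 45 bases before the start of *Sema3c* and in 16.6% of all promoters. TGGGAA, the letters bound by the Notch partner RBPJ, and ACAAT, bound by SOX factors, were found on neither strand in these 3 windows, against 21.6% and 27.7% of all promoters. Such matches describe the letters of a window and say nothing of binding.

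*Sema3c* (chr5:17574281-17730268, plus strand) encodes a secreted class 3 semaphorin that signals through neuropilins and plexins, PlexinD1 among them. It was scarce at P6, with 13 UMIs in 11 of 1424 cells, and abundant at P15, with 595 UMIs in 379 of 1644 cells. This came to 1.70 CPM (0.905 to 2.91) at P6 and 80.7 (74.4 to 87.5) at P15, a ratio of 47.5 (27.6 to 89.7). Only 3 of 10972 genes had a higher ratio, among them *Vtn* (133), a pericyte gene, and *Rlbp1* (48.7), a gene of Müller glia. The share of cells with a *Sema3c* UMI was 0.772% (0.386 to 1.38) at P6 and 23.1% (21.0 to 25.2) at P15, and after each cell was thinned to 2000 UMIs 0.425% and 13.6%. At P15 it stood at 85.3 CPM in cells with *Xist* and no Y-linked UMI and 83.5 CPM in cells with Y-linked and no *Xist* UMIs, while at P6 these cells gave 4 UMIs and 1 UMI. Of all semaphorin UMIs, *Sema3c* made up 0.491% at P6 and 19.1% at P15.

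**Figure D1:**
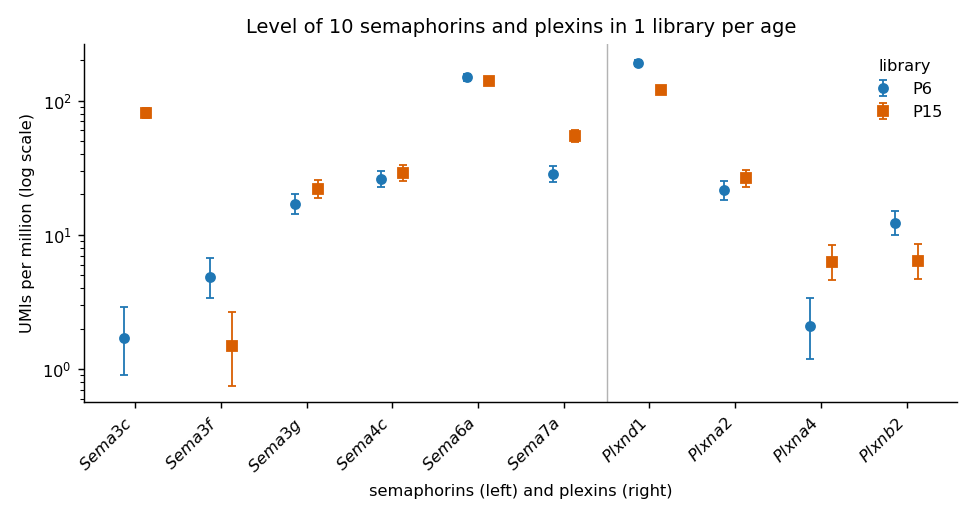
Level of each of the 10 genes in CPM (log axis) in the P6 library (circles) and the P15 library (squares), 1 library per age; bars are exact 95% counting intervals. *Sema3c* moves from 1.70 to 80.7 CPM, while *Sema6a* stays near 149 and 141 and *Plxnd1* is lower at P15.

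The other secreted members had ratios closer to 1. *Sema3g* (chr14:31217860-31230352, plus strand) is a class 3 semaphorin known from arterial endothelium, and the study lists it among the arterial genes of its arterial score. It stood at 17.0 CPM (14.2 to 20.2) at P6 and 22.0 (18.7 to 25.6) at P15, a ratio of 1.29 (1.02 to 1.64). Its share of cells was 7.72% at P6 and 7.48% at P15, and 3.33% and 4.01% after thinning. *Sema3f* (chr9:107681500-107710475, minus strand), a ligand of neuropilin 2 that repels endothelial cells, gave 37 UMIs at P6 and 11 at P15, or 4.84 and 1.49 CPM, a ratio of 0.308 (0.142 to 0.618). With 48 UMIs in all it fell short of the 50 UMIs set for counting a gene.

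Among the membrane-bound semaphorins, *Sema7a* differed most. *Sema7a* (chr9:57940112-57962865, plus strand), a lipid-anchored semaphorin that binds integrins and PlexinC1, stood at 28.4 CPM (24.7 to 32.4) at P6 and 54.4 (49.2 to 59.99) at P15, a ratio of 1.92 (1.62 to 2.27). The share of cells with a UMI was 13.3% at P6 and 19.6% at P15, and 6.52% and 9.71% after thinning. *Sema6a*, on chromosome 18, a transmembrane semaphorin that binds class A plexins, was found in 49.1% of cells at P6 and 44.5% at P15. Its level was 149 CPM (141 to 158) at P6 and 141 (132 to 150) at P15, a ratio of 0.944 (0.867 to 1.03) whose interval includes 1. *Sema4c* (chr1:36548639-36558349, minus strand), a ligand of PlexinB2 that overlaps a gene on the other strand, stood at 26.0 CPM at P6 and 28.9 at P15, a ratio of 1.11 (0.911 to 1.35).

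Among the receptors, *Plxnd1* and *Plxnb2* were lower at P15 and *Plxna4* was higher. *Plxnd1* (chr6:115954811-115995005, minus strand), the plexin most closely tied to endothelium, stood at 190 CPM (180 to 200) at P6 and 121 (113 to 129) at P15, a ratio of 0.635 (0.584 to 0.691). It was found in 57.8% of P6 cells and 37.7% of P15 cells, and in 30.0% and 19.2% after thinning. *Plxnb2* (chr15:89155549-89180788, minus strand), receptor of *Sema4c*, stood at 12.3 CPM at P6 and 6.38 at P15, a ratio of 0.519 (0.357 to 0.744). *Plxna2* (chr1:194618218-194816869, plus strand), a receptor of *Sema6a*, stood at 21.4 and 26.5 CPM, a ratio of 1.23 (0.997 to 1.53). *Plxna4* (chr6:32144268-32588192, minus strand), another class A receptor, gave 16 UMIs at P6 and 46 at P15, a ratio of 2.98 (1.66 to 5.64). It overlaps antisense genes on the other strand, and whether counting used strand is not given in the sources used here.

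**Figure D2:**
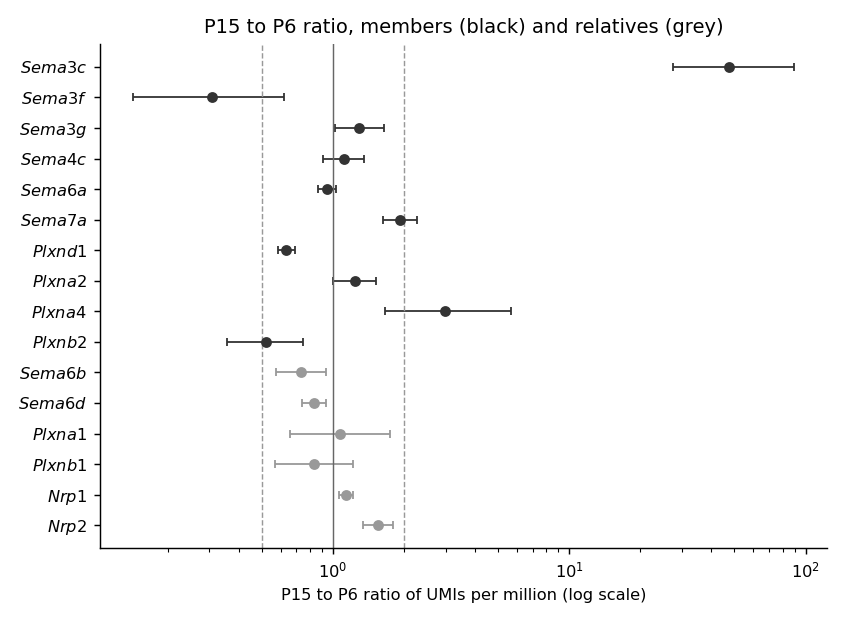
P15 to P6 ratio of CPM (log axis) with exact 95% counting intervals, for the 10 members (black) and for relatives and neuropilins with at least 50 UMIs (grey); the solid line is 1 and the dashed lines mark 2-fold either way. *Sema3c* lies alone at 47.5, and *Plxnd1* at 0.635 is below 1.

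Of the 9 members with at least 50 UMIs, 2 (*Sema3c* and *Plxna4*) were at least 2-fold higher at P15, beside 7.25% of all genes, and 0 were at least 2-fold lower, beside 5.79% (13% of all genes either way). With a minimum of 200 UMIs it was 1 higher beside 5.63%, and with a minimum of 10 UMIs 1 lower, *Sema3f*, beside 8.23%. At a fold of 1.5 it was 3 higher, *Sema7a* joining, beside 18.8%, and 2 lower, *Plxnd1* and *Plxnb2*, beside 11.8%. In every barcode it was 3 higher, again with *Sema7a*, beside 9.03%, and 1 lower, *Sema3f*, beside 8.05%. The rise of *Sema3c* was in view when the genes were chosen, so its place in these counts was fixed in advance. Both *Sema3c* (13 UMIs at P6 and 595 at P15) and *Plxna4* (16 and 46) reached 50 UMIs mainly through P15. *Plxna4*, the other gene of the 2, was under 2-fold after thinning (1.92) and in cells with *Xist* and no Y-linked UMI (1.60). The median ratio of the 9 was 1.23, against 1.09 for all genes. In the wider family, 0 of 2 other semaphorins and 0 of 2 other plexins with enough UMIs passed 2-fold. *Sema6d*, a transmembrane semaphorin like *Sema6a*, stood at 87.1 CPM at P6 and 72.2 at P15, a ratio of 0.829 (0.738 to 0.930). *Sema6b* had a ratio of 0.732 (0.571 to 0.935), *Plxna1* of 1.07 (0.656 to 1.74) and *Plxnb1* of 0.833 (0.569 to 1.21). Summed over the family, semaphorins went from 346 CPM (333 to 360) at P6 to 422 (407 to 437) at P15. Without *Sema3c*, whose level was known when the genes were chosen, they stood at 344 CPM (331 to 358) at P6 and 341 (328 to 355) at P15. Plexins went from 242 (231 to 253) to 173 (164 to 183). *Sema3e*, the best known ligand of *Plxnd1*, had 0 UMIs in the 1644 kept P15 cells, and no row of the P6 counts matched it.

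Of 6 co-receptors and partners with at least 50 UMIs, 0 were 2-fold higher or lower. *Nrp1*, the neuropilin that also binds VEGF, stood at 208 CPM at P6 and 236 at P15, a ratio of 1.13 (1.06 to 1.21). *Nrp2*, the neuropilin of veins and lymphatics, stood at 42.1 and 65.4, a ratio of 1.55 (1.35 to 1.79). *Kdr*, the VEGF receptor that forms complexes with them, had a ratio of 0.930 (0.882 to 0.980). *Itga1*, a subunit of the integrin bound by *Sema7a*, had a ratio of 1.70 (1.55 to 1.85), and its partner *Itgb1* 0.961 (0.920 to 1.004). *Erbb2*, a receptor tyrosine kinase that partners class B plexins, gave 77 UMIs at P6 and 45 at P15, a ratio of 0.606 (0.410 to 0.887). Of 4 proteases that process semaphorins 0 passed, and of 22 intracellular effectors 1, *Sh3bp1*, a Rac regulator that binds PlexinD1, which gave 69 UMIs at P6 and 24 at P15, a ratio of 0.361 (0.217 to 0.582).

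Position in the vasculature was read from the study's cluster labels, which cover 1560 P6 cells and, in the copy used here, 438 P15 cells. Of these, 1399 and 409 also passed the exclusion criteria as read here. Cluster levels use all labelled cells, so they rest on a partly different set of cells than the library levels above. They name Arterial, Cap-Arterial, Capillary, Cap-Venous, Venous, Stalk, Tip, Primitive and Proliferative cells, and levels are given for clusters of at least 20 labelled cells, 9 at P6 and 6 at P15. The marker *Bmx* was highest in P6 Arterial cells (491 CPM), *Gja4* stood at 1913 in Arterial and 1859 in Cap-Arterial cells, and *Esm1* was highest in Tip cells (189). The venous labels were less sharply marked, *Nr2f2* standing at 80.4 in Cap-Venous, 35.1 in Venous and 44.3 in Cap-Arterial cells. The clusters were made from the same cells and genes, so a cluster against the rest is a description. Capillary cells were the shallowest, with a median of 3204 UMIs at P6 and 2269 at P15.

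*Sema3g* and *Sema7a* were highest on the arterial side, *Sema7a* at P15 together with Capillary cells, and *Sema3c* was highest in Cap-Arterial cells. *Sema3g* at P6 stood at 132 CPM (86.0 to 193) in 40 Arterial cells, 55.0 (40.3 to 73.4) in 162 Cap-Arterial cells and 21.0 in Capillary cells, and each of the first 2 exceeded the next beyond counting error. Below Capillary cells no neighbours in the order differed beyond it, from Tip (12.5) and Cap-Venous cells (10.9) down to Venous cells with 0 UMIs, which allows up to 10.54 CPM. A *Sema3g* UMI was found in 45% of Arterial, 22.2% of Cap-Arterial and 6.76% of Cap-Venous cells. At P15 the same gene stood at 85.9 CPM (56.1 to 126) in Cap-Arterial cells and 6.55 in Cap-Venous cells, and the 11 labelled Arterial cells held 8 UMIs, or 163 CPM (70.4 to 321).

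*Sema3c* was highest in Cap-Arterial cells at both ages. At P6 those cells held 11 of the 18 UMIs in labelled cells, 13.2 CPM (6.57 to 23.5), and no neighbouring clusters differed beyond counting error at such counts. At P15 Cap-Arterial cells stood at 221 CPM (171 to 281), with a UMI in 58.8% of them, followed by Stalk (98.7), Cap-Venous (77.3) and Capillary cells (75.7), where neighbours in this order did not differ beyond counting error, and the 11 labelled Arterial cells held 6 UMIs. Tip cells stood far lower, at 14.1 (3.84 to 36.0), with a UMI in 4.35% of 46 cells against 58.8% in Cap-Arterial cells, although Tip cells were deeper (median 5853 UMIs against 3919). Primitive cells held 1 UMI.

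*Sema7a* at P6 stood at 76.6 CPM (59.0 to 97.8) in Cap-Arterial and 65.8 (35.0 to 113) in Arterial cells, which did not differ beyond counting error. Tip (35.7), Capillary (34.4) and Stalk cells (29.2) followed, and Cap-Venous cells stood at 17.3. At P15 it stood at 99.1 CPM (66.9 to 141) in Cap-Arterial, 94.6 (45.4 to 174) in Capillary and 28.8 (18.1 to 43.6) in Cap-Venous cells, and the first 2 did not differ beyond counting error (1.05, 0.499 to 2.40). Of 7 members with at least 50 UMIs in labelled P6 cells, 2, *Sema3g* and *Sema7a*, were at least 2-fold higher in Cap-Arterial cells than in the other labelled cells, beside 5.65% of all genes. In P6 Arterial cells the same 2 were at least 2-fold higher, beside 12.1%, and 2, *Sema6a* and *Plxna2*, at least 2-fold lower, beside 15.8%. At P15 it was 2 of 5 in Cap-Arterial cells, *Sema3c* and *Sema7a*, beside 2.86%.

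**Figure D3:**
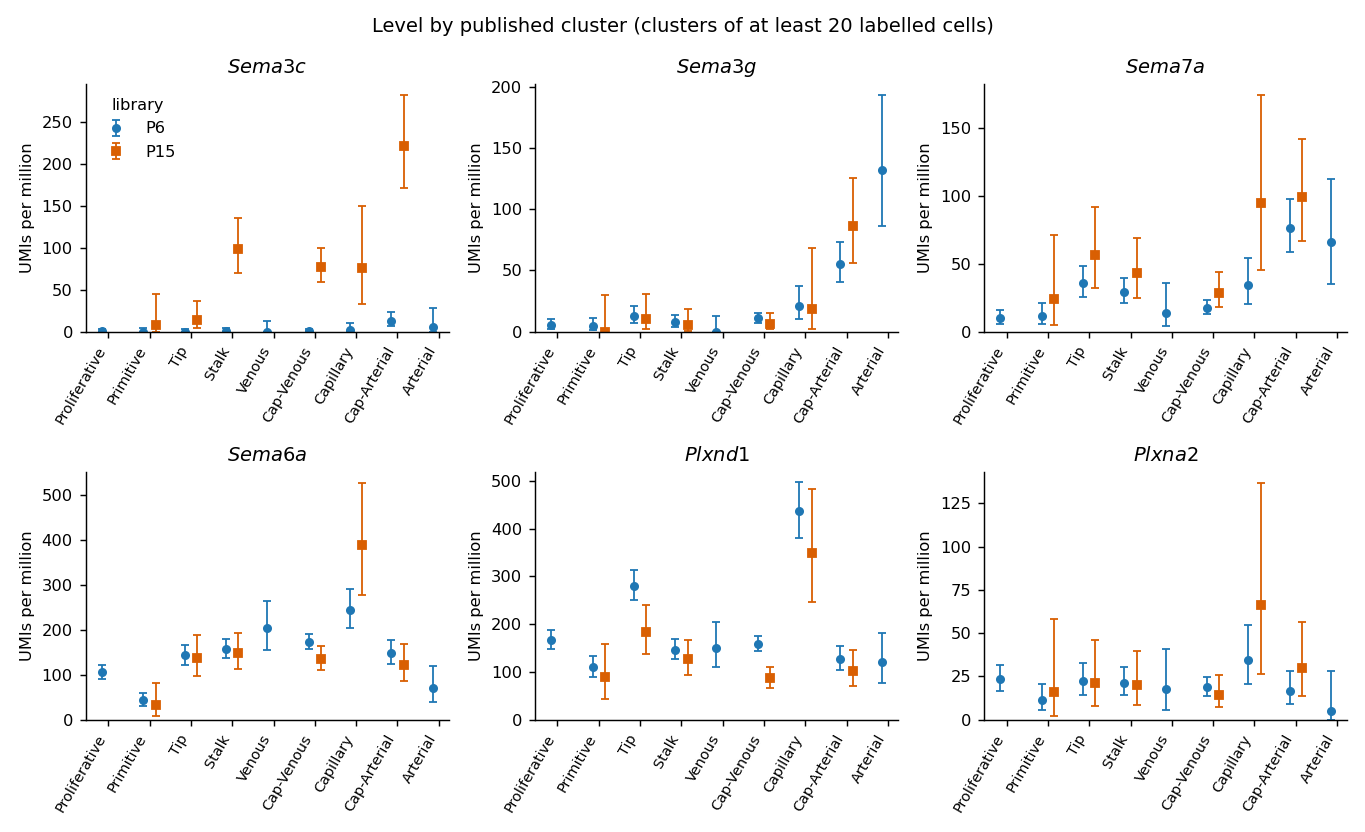
Level in CPM by published cluster for 6 of the genes, P6 (circles) and P15 (squares), with exact 95% counting intervals; P15 clusters of fewer than 20 labelled cells are left out. *Sema3g* is highest in P6 Arterial cells at 132, *Sema3c* in P15 Cap-Arterial cells at 221, and *Sema6a* and *Plxnd1* in Capillary cells at both ages.

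Put together, the arterial side (Cap-Arterial and Arterial cells, 202 at P6 and 79 at P15) and the venous side (Cap-Venous and Venous cells, 456 and 136) differed for these 3 genes at both ages. The arterial to venous ratio of *Sema3g* was 7.08 (4.54 to 11.3) at P6 and 14.9 (5.79 to 48.8) at P15. That of *Sema7a* was 4.39 (3.04 to 6.397) and 3.19 (1.79 to 5.75). That of *Sema3c* was 11.4 (3.08 to 63.0), from 12 and 3 UMIs, at P6 and 2.71 (1.90 to 3.89), from 73 and 59 UMIs, at P15. Cap-Arterial cells held 67 of the 73 UMIs, and the P15 venous side included only 2 Venous cells.

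*Sema3f* was also higher on the arterial side at P6, with a ratio of 3.48 (1.31 to 9.51) from 11 and 9 UMIs, and at P15 both sides held 1 UMI in all. *Sema6a* was somewhat lower on the arterial side, with a ratio of 0.762 (0.627 to 0.920) at P6 and 0.764 (0.511 to 1.12) at P15, and *Sema4c* had intervals that include 1 at both ages. *Plxnd1* had a ratio of 0.793 (0.648 to 0.966) at P6 and 1.09 (0.698 to 1.69) at P15. Of the neuropilins, *Nrp1* had a ratio of 1.57 (1.36 to 1.81) at P6 and 1.07 (0.804 to 1.41) at P15. That of *Nrp2* was 0.598 (0.389 to 0.891) and 0.219 (0.0681 to 0.546). The study used *Nrp2* among the genes that named its venous clusters, so this ratio is not independent of the labels. *Plxna4* had 0 UMIs in the labelled Cap-Arterial and Arterial cells at both ages.

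**Figure D4:**
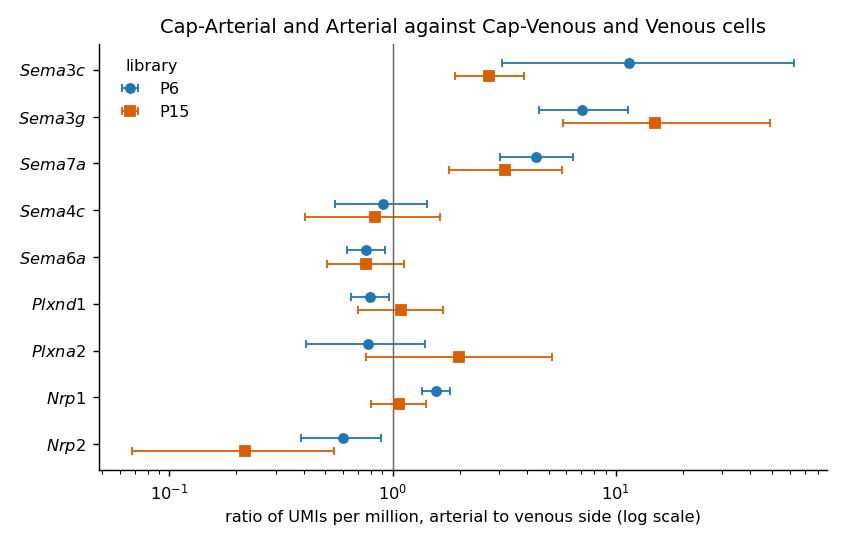
Ratio of CPM in Cap-Arterial and Arterial cells to that in Cap-Venous and Venous cells (log axis), P6 (circles) and P15 (squares), with exact 95% counting intervals and a line at 1. *Sema3c*, *Sema3g* and *Sema7a* lie above 1 at both ages. *Nrp2*, which the study used in naming the venous clusters, lies below 1.

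The receptor *Plxnd1* and the transmembrane *Sema6a* were highest in Capillary cells. *Plxnd1* at P6 stood at 436 CPM (381 to 497) in Capillary cells and 281 (250 to 313) in Tip cells, each above the next cluster beyond counting error, and between 109 and 167 in the other 7 clusters. A *Plxnd1* UMI was found in 78.2% of Tip cells and 72.5% of the shallower Capillary cells. At P15 it stood at 350 CPM (246 to 482) in Capillary and 183 (137 to 240) in Tip cells. It was the 1 of 7 members at least 2-fold higher in P6 Capillary cells, beside 8.17% of all genes. In P15 Capillary cells it was 3 of 5, *Sema6a*, *Sema7a* and *Plxnd1*, beside 7.59%.

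*Sema6a* at P6 stood at 245 CPM (204 to 291) in Capillary, 204 in Venous and 174 in Cap-Venous cells, and at 70.9 in Arterial and 43.5 (31.2 to 59.0) in Primitive cells. The only neighbours in that order to differ beyond counting error were Tip (143) and Proliferative cells (106). At P15 it stood at 388 CPM (278 to 526) in Capillary cells, between 122 and 149 in Stalk, Tip, Cap-Venous and Cap-Arterial cells, and at 32.3 in Primitive cells. *Plxna2* was highest in Capillary cells at both ages, 34.4 CPM (20.4 to 54.4) at P6 and 66.2 (26.6 to 136) at P15, with no neighbours in the P6 order that differed beyond counting error. The same held for *Sema4c* and *Plxnb2* at P6, at 42.1 and 19.1 CPM in Capillary cells.

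Primitive and Proliferative cells held less of several members. In P6 Primitive cells 3 of 7 (*Sema3g*, *Sema6a* and *Sema7a*) were at least 2-fold lower than in the other labelled cells, beside 27.4% of all genes, and in P15 Primitive cells 4 of 5 (*Sema3c*, *Sema4c*, *Sema6a* and *Sema7a*), beside 22.6%. In P6 Proliferative cells 2 of 7 were (*Sema3g* and *Sema7a*), beside 4.64%. *Sema3g* was also the 1 of 7 in P6 Stalk cells, beside 3.93%, and in P6 Venous cells, beside 12.1%. At P15 it was *Sema3c* in Tip cells, beside 6.02%, and *Sema7a* in Cap-Venous cells, beside 1.82%.

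The higher *Sema3c* at P15 was known when the genes were chosen, and it is only described here by cluster. Within the 6 clusters with enough labelled cells in both libraries, the P15 to P6 ratio of *Sema3c* was above 1 in 6, and in 5 beyond counting error. In Cap-Arterial cells it was 16.8 (8.82 to 35.3), from 11 and 67 UMIs. In Cap-Venous cells it was 68.5 (22.3 to 342), from 3 and 59 UMIs, in Stalk cells 139 (23.4 to 5611), from 1 and 39 UMIs, and in Capillary cells 39.6 (5.30 to 1755), from 1 and 8 UMIs. Tip cells had 0 UMIs at P6 and 4 at P15, a ratio with an exact lower limit of 2.60. Primitive cells had 0 and 1, with a lower limit of 0.195. Arterial, Venous and Proliferative cells had too few labelled P15 cells to be compared.

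*Plxnd1* was lower in 6 of the 6 clusters, beyond counting error in 2, with ratios of 0.542 (0.412 to 0.704) in Cap-Venous and 0.652 (0.477 to 0.877) in Tip cells and between 0.802 and 0.862 in the other 4. When P15 clusters were weighted to the P6 make-up its ratio was 0.714. *Sema7a* was above 1 in 6 of 6, beyond counting error in Capillary cells alone (2.75, 1.13 to 6.28). *Sema6a* differed by cluster, at 1.58 (1.09 to 2.27) in Capillary cells and 0.777 (0.621 to 0.964) in Cap-Venous cells. *Sema3g* stood 1.56 times as high at P15 (0.926 to 2.58) in Cap-Arterial cells and below 1 in the other 5, each with an interval that includes 1. *Nrp2* was higher beyond counting error in Tip (3.11, 1.86 to 5.15) and Stalk cells (2.26, 1.44 to 3.52).

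**Figure D5:**
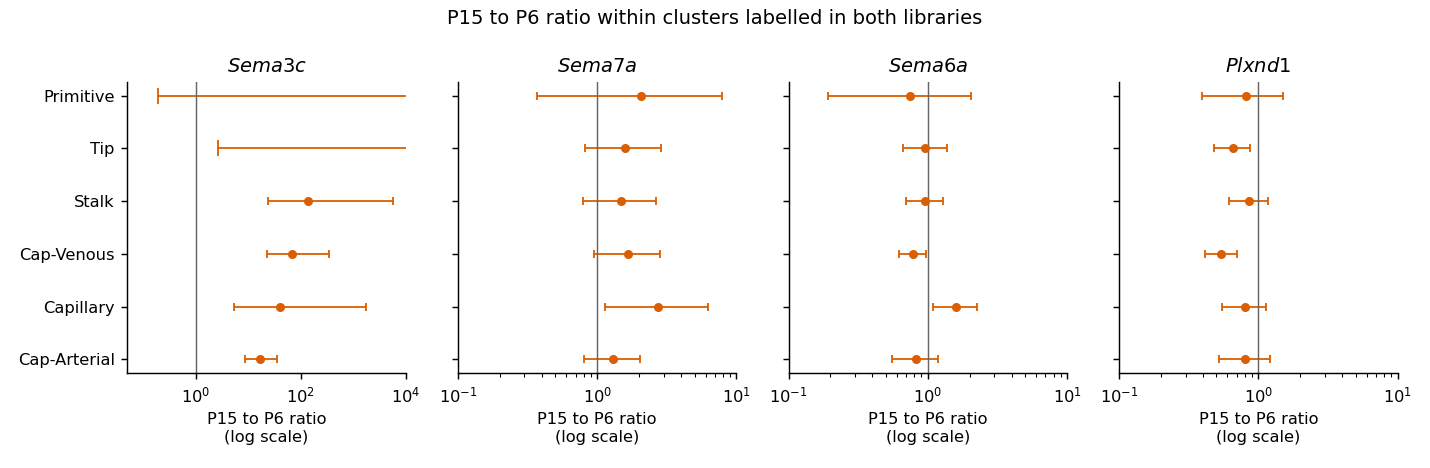
P15 to P6 ratio of CPM (log axes, whose ranges differ between *Sema3c* and the other genes) within the 6 clusters labelled in both libraries, with exact 95% counting intervals and a line at 1; lines without a point have 0 UMIs at P6 and no upper limit. *Sema3c* lies above 1 beyond counting error in 5 of the 6 clusters, while the line of Primitive cells starts at 0.195 and crosses 1. The *Plxnd1* ratio is below 1 in each of the 6, beyond counting error in 2.

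Labels were predicted for the remaining P15 cells from their neighbours in expression, with semaphorin and plexin genes left out, which was right for 82.9% of labelled P15 cells. Over 1673 P15 cells *Sema3c* stood at 211 CPM (187 to 238) in 301 Cap-Arterial cells, 58.1 (50.1 to 67.0) in 617 Cap-Venous cells, 65.0 (33.6 to 114) in 43 Arterial cells and 12.3 (6.34 to 21.4) in 166 Tip cells. Stalk cells stood at 87.6 and Capillary cells at 86.7, and the Arterial level was 0.810 times (0.416 to 1.42) that of the other cells. *Sema3g* stood at 184 CPM (128 to 257) in Arterial and 71.4 (57.5 to 87.5) in Cap-Arterial cells. *Plxnd1* relative to P6 was 0.652 (0.563 to 0.754) in Cap-Venous, 0.643 (0.486 to 0.850) in Cap-Arterial and 0.965 (0.757 to 1.22) in Capillary cells. *Sema7a* relative to P6 was above 1 beyond counting error in Cap-Venous (2.24, 1.59 to 3.21), Capillary (2.40, 1.20 to 4.81), Tip (1.63, 1.07 to 2.51) and Cap-Arterial cells (1.40, 1.03 to 1.91). *Plxna4*, absent from the labelled Cap-Arterial cells, gave 5 UMIs in the larger set.

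Pericyte markers were higher in the P15 library, as was *Sema3c*, and their part in the *Sema3c* level was not tested. Among the 6 P15 clusters with enough labelled cells, the summed pericyte markers stood at 165 CPM in Cap-Arterial (5 of 8 found), 170.2 in Cap-Venous (6 of 8 found) and 444 in Capillary cells (3 of 8 found). The 153 P15 barcodes with at least 3 pericyte markers, which also held all 8 endothelial markers, had 49 *Sema3c* UMIs, 49.1 CPM (36.3 to 64.9), with a UMI in 15.7% of them (10.3 to 22.4). The 15 of them with at most 1 endothelial marker, at a median of 2712 UMIs, held 0. That allows up to 62.5 CPM, with an exact upper limit of 76.8, against 80.7 CPM in the kept cells. Leaving out the pericyte-marker barcodes that were among the kept cells left 1606 of 1644 cells at P15 and 1423 of 1424 at P6. The *Sema3c* ratio was then 47.9, and pericyte markers still summed to 176.5 CPM at P15 and 8.90 at P6. Glial markers summed to 369 CPM at P6 (4 of 4 with a row found) and 1227 at P15 (5 of 5 found). In Cap-Arterial cells they summed to 1592 at P6 (2 of 4 found, *Slc1a3* and *Gfap* at 0). At P15 they summed to 2844 there (2 of 5 found, *Slc1a3*, *Aqp4* and *Gfap* at 0). In Arterial cells *Glul* was the only glial marker found, at 1564 CPM at P6 and 3443 in the 11 labelled P15 cells. These sums rest on few of the markers, and the part of glial RNA in the *Sema3c* level was not tested.

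Genes with the pattern most like each member over 15 points, the 9 P6 and 6 P15 clusters, were sought among 6595 genes with at least 200 UMIs in labelled cells. The points share libraries and depth, and r is a description. For *Sema3c* they were *Hpcal1* (r = 0.944), *Arl4a* (0.913) and *Klf9* (0.911). For *Plxnd1* they were *Nid1* (0.928) and *Col4a1* (0.907), both basement membrane genes, and *Flna* (0.894), which encodes an actin crosslinker. *Sema6a* was nearest to *Dcp1a* (0.955), *Gdap10* (0.953) and *Taok2* (0.953), *Sema7a* to *Ifngr1* (0.890), *Sipa1l2* (0.887) and *Tns1* (0.878), *Plxna2* to *Ivns1abp* (0.923), *Mdm4* (0.911) and *Hdac8* (0.902), and *Sema4c* to *Trmt1l* (0.904), *Spaca6* (0.897) and *Irf2bpl* (0.884). Among members, r was 0.643 for *Sema3c* with *Sema7a* and −0.226 for *Sema3c* with *Plxnd1*. *Sema3g*, *Sema3f*, *Plxna4* and *Plxnb2* had fewer than 200 UMIs in labelled cells and were left out.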

How the data were processed

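The authors deposited UMI counts per gene and cell barcode for each library, with no normalization. The submitters' processing notes name mm10 and Seurat 3.0 without a role, and the aligner and annotation of these counts are not given in the sources used here. Gene identifiers were matched to symbols without their version (39 identifiers at P6 and 40 at P15 matched none, 0.0145% and 0.0146% of UMIs). Coordinates are from the GENCODE M21 annotation and promoters from RefSeq, both on GRCm38, the build that mm10 names, and 7 of the 10 genes had a promoter in the table.

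Following the study's exclusion criteria as read here, a cell was kept with 200 to 3500 genes, a mitochondrial share of up to 5%, and *Hbb-bt*, *Neurod1* and *Cd63* all at 0 UMIs. The limit on genes was the only guard against doublets, no doublet caller was run, and 0.632% of kept P6 cells and 0.730% of kept P15 cells held both *Xist* and Y-linked UMIs. Cluster labels came from the study's source data, whose copy here holds part of the P15 labels. UMIs were summed over cells and scaled to CPM. Levels carry exact Poisson intervals, shares Clopper-Pearson intervals and ratios intervals from the conditional binomial, all at 95%, and 3 counts bound a count of 0. They cover counting error only, and with 1 library per age no test and no p-value was made. The median total per kept cell was 4986 UMIs at P6 and 4215 at P15.

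P15 labels were predicted from 15 nearest neighbours on 13 principal components. Patterns were compared as log2 of CPM plus 10. The ratio calculation was first run on simulated counts of 10972 genes of this comparison of P15 with P6. The counts were drawn with counting error alone, the error that the intervals assume. There 95.8% of intervals held the true ratio, and 100% of 200 genes changed 3-fold and 8 unchanged genes passed 2-fold. This checks the calculation only and says nothing of the spread between cells or libraries. Python 3.11.15 was used with numpy 2.4.6, scipy 1.17.1, pandas 2.3.3, scikit-learn 1.9.0 and matplotlib 3.10.9.

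The members, the gene lists and the settings were chosen with earlier results of these data known. The genes named are the members, relatives and pathway genes with at least 50 UMIs that passed 2-fold or are receptors or partners of a member, the nearest 3 genes in pattern, and the cell type markers. *Sema6b* and *Sema6d* fall outside this and were named after their values were seen. *Sema3e*, with fewer than 50 UMIs, falls outside it too. Alternatives covered the cells used, scaling, depth per cell, weights, cluster make-up, sex-linked reads, the minimum count and the fold, and leaving out pericyte-marker barcodes was added after the data were seen.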

Additional observations from a re-analysis of the deposited data

Results flagged for a closer look

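Barcodes with neural or pericyte markers held signal of 3 of the genes above that in the endothelial cells kept. In 98 P6 barcodes with a UMI of the neural gene *Neurod1*, which the study's criteria leave out, *Sema3f* stood at 17.4 CPM (9.72 to 28.6) against 4.84 in the cells kept, and *Plxna2* at 57.9 (43.0 to 76.3) against 21.4. In the 31 of them with at most 1 endothelial marker, *Plxna2* stood at 78.5 CPM (35.9 to 149, from 9 UMIs) and *Sema3f* at 17.4 (2.11 to 63.0, from 2 UMIs), while *Sema3c* had 0 UMIs. In 153 P15 barcodes with at least 3 pericyte markers, which also held endothelial markers at a summed 9177 CPM, *Plxnb2* stood at 21.0 CPM (13.02 to 32.2) against 6.38 in the cells kept, and 15 of them with at most 1 endothelial marker held 2 *Plxnb2* UMIs.

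*Sema6a* moved in opposite directions between ages in 2 clusters, each beyond counting error: the P15 to P6 ratio was 1.58 within Capillary cells and 0.777 within Cap-Venous cells. The difference between the clusters was not tested, since each age is 1 library. With predicted P15 labels the ratios were 1.48 (1.12 to 1.96) and 0.899 (0.791 to 1.02), and 0.680 (0.528 to 0.876) in Cap-Arterial cells.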

How the results depend on the processing

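No P15 to P6 ratio whose interval excludes 1 crossed 1. *Sema6a* did in every barcode, and *Sema4c* in cells with Y-linked and no *Xist* UMIs (0.994). Of 89 P15 to P6 ratios under alternatives, 73 stayed within the counting interval of the reported value and 16 did not. These were *Sema4c* in labelled cells only (1.39), *Sema6a* in every barcode (1.08), *Sema6a* (0.864) and *Plxnd1* (0.581) with median-ratio scaling, which moves the median gene by 0.128 on the log2 scale, *Sema6a* (0.843), *Sema7a* (1.59) and *Plxnd1* (0.544) after thinning, and *Plxnd1* with P15 clusters weighted to P6 shares (0.714). In cells with *Xist* and no Y-linked UMI they were *Sema3g* (2.26, 0.983 to 5.01), *Sema6a* (0.812), *Sema7a* (1.45, 0.733 to 2.75), *Plxna4* (1.60, 0.259 to 7.48) and *Plxnb2* (0.999, 0.286 to 2.85). In cells with Y-linked and no *Xist* UMIs they were *Sema3c* (162, 28.9 to 6431, from 1 P6 UMI), *Sema6a* (0.865) and *Plxna2* (1.74, 1.14 to 2.72). Of 30 P6 cluster ratios 2 moved and of 20 P15 ones 0: *Plxna4* in P6 Venous cells, 2 UMIs as deposited, was 0 among cells that also pass the exclusion criteria and 0 after thinning. The number of members at least 2-fold higher was 1 with a minimum of 200 UMIs, 3 with a fold of 1.5 and 3 in every barcode. The number at least 2-fold lower was 1 with a minimum of 10 UMIs, 2 with a fold of 1.5 and 1 in every barcode. The percent of all genes past the fold was 19.6 with a minimum of 10 UMIs and 30.7 with a fold of 1.5.

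Thinning to 2000 UMIs lowered 18 of 20 shares of cells beyond their counting intervals. Lower shares follow from the step itself, since removing UMIs can only lower the number of cells with a UMI. At P6 the thinned shares were 0.992% for *Sema3f*, 3.33% for *Sema3g*, 5.03% for *Sema4c*, 25.4% for *Sema6a*, 6.52% for *Sema7a*, 30.0% for *Plxnd1*, 4.46% for *Plxna2*, 0.425% for *Plxna4* and 2.76% for *Plxnb2*. At P15 they were 13.6% for *Sema3c*, 4.01% for *Sema3g*, 5.77% for *Sema4c*, 23.2% for *Sema6a*, 9.71% for *Sema7a*, 19.2% for *Plxnd1*, 4.76% for *Plxna2*, 0.815% for *Plxna4* and 1.29% for *Plxnb2*. With predicted labels the P15 Capillary ratio of *Sema4c*, 0.791 from 3 UMIs, was 1.98. The cause of the changed ratios was not tested. No paired analysis was possible because each age is 1 library. Depth limited *Sema3f*, *Plxna4* and *Plxnb2* most, with 48, 62 and 141 UMIs over both libraries.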
